A study of Mus musculus with 14 samples.

Results

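Metallothioneins and the genes that set their level through zinc were followed in sorted mouse skin cells. The set held 4 genes of 24537 in the deposited tables, chosen by symbol and present once in each table: the metallothionein genes Mt1 and Mt2, the metal-sensing transcription factor gene Mtf1 and the zinc exporter gene Slc30a1. Transcripts were sequenced in regulatory T (Treg) cells of the skin 1 day after hair depilation, in 5 libraries from Foxp3YFP-Cre GRfl/fl mice (GR KO) and 3 from wild-type mice (GR WT). Hair follicle stem cells (HFSC), sorted as CD34-positive cells with high integrin alpha 6, were sequenced 4 days after depilation in 3 GR KO and 3 GR WT libraries. In GR KO mice the Cre is expressed with Foxp3, the Treg lineage factor, and cuts the floxed glucocorticoid receptor gene Nr3c1, so the Treg comparison reads the targeted cells and the HFSC comparison reads neighbouring cells with an untargeted receptor. All mice were depilated. The sources used here give neither ages nor whether wild-type mice carried the Cre.

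Metallothioneins are small cytoplasmic proteins whose cysteines hold zinc and copper and can also react with oxidants. When free zinc rises, MTF-1, the product of Mtf1, binds metal response elements in promoters and switches on Mt1, Mt2 and Slc30a1, whose product ZnT1 carries zinc out across the plasma membrane. Glucocorticoids are also known inducers of Mt1 and Mt2 in the mouse. In skin, metallothioneins are known from basal keratinocytes and hair follicles.

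In the mm10 build the metallothionein genes stand in a row on the plus strand of chromosome 8, with Mt4 first, then Mt3, Mt2 and Mt1. Mt2 (NM_008630, 551 bases of transcript) runs from 94172618 to 94173567 and Mt1 (NM_013602, 537 bases) from 94179089 to 94180327, with 5521 bases between them. Mtf1 (NM_008636, 7618 bases) lies on chromosome 4 from 124802549 to 124849800, and Slc30a1 (NM_009579, 5226 bases) on chromosome 1 from 191906781 to 191913247, both on the plus strand.

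The promoter windows of the genes that MTF-1 is known to drive are shown because these genes share a regulator. Each RefSeq window (GRCm38.p6, the assembly behind mm10, plus strand) holds 250 bases before the annotated start and 50 bases from it. Capitals mark the 7-base core of the metal response element, searched on both strands as TGCACNC and TGCGCNC. Overlapping matches on opposite strands count separately, and none of the matches shown overlap. All 4 genes matched a window, and the window of Mtf1 (chr4:124802299-124802598), with no core, is not printed.
Mt1 (chr8:94178839-94179138): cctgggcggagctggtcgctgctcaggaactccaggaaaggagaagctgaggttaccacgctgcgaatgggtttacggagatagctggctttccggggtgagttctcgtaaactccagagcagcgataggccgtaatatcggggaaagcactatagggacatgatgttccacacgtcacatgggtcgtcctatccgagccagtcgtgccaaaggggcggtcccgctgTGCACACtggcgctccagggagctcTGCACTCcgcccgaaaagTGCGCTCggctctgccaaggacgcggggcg
Mt2 (chr8:94172368-94172667): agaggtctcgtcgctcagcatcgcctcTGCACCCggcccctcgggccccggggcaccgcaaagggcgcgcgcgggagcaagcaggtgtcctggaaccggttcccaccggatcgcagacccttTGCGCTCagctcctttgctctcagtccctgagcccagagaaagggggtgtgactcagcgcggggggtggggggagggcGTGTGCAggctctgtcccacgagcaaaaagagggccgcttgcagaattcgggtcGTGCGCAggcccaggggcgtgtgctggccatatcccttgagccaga
Slc30a1 (chr1:191906531-191906830): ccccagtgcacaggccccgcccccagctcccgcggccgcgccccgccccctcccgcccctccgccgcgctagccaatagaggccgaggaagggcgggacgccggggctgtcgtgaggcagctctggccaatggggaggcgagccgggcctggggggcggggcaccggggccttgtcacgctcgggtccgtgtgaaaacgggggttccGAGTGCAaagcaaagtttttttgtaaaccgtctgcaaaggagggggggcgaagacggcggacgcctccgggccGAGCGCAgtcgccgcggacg

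Mt1 held 3 cores, beginning at positions -23, 3 and 21 counted from 1 at the first base of the annotated transcript, with no position 0. Mt2 held 4, at positions -223, -128, -50 and 5, and Slc30a1 held 2, at -43 and 31. A single core is common, since 25.7% of the 32851 windows in the table held at least 1. At least 3 were held by 1.97% of windows and at least 4 by 0.517%. The antioxidant response element core TGACNNNGC lay at position -79 in Mt2 and -82 in Slc30a1, and 12.4% of windows hold it. A full glucocorticoid response element, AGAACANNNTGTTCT, was in 3 windows of the table, or 0.00913%, and in none of these 4. With an exact match that rare, its absence from a window says little. Sequence more than 250 bases before the annotated start was not searched, so elements further away would be missed. Its left arm, AGAACA, was in the Mtf1 window at position -223 and in 19.0% of all windows. These matches describe letters in short windows and are not sites of measured binding.

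The coding sequences of Mt1 and Mt2 (GENCODE M21 transcripts, GRCm38) are shown because the products are near copies and their reads must be told apart. Capitals mark the cysteine codons, TGC and TGT, that supply the metal-binding thiols.
Mt1: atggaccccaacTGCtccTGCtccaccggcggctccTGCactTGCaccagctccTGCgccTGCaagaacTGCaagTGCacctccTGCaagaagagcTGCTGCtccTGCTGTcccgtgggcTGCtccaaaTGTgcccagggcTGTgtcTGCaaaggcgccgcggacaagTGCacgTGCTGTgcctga
Mt2: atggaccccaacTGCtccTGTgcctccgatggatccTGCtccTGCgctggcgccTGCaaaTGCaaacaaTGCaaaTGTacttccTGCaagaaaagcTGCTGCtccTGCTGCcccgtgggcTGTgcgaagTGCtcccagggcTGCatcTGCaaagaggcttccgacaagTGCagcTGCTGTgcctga

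Both sequences had 186 bases and 61 codons before the stop, of which 20 code for cysteine, and all 20 stood at the same place in both genes. The coding bases were identical at 148 of 186 positions, or 79.6%. The longest identical run between the full transcripts was 20 bases, so an error-free read longer than that matches at most 1 of the 2 transcripts, but the counting of reads that fit both genes is not given in the sources used here.

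Depth bears on how finely these short transcripts were read. Tags recovered from the TPM steps numbered 9.2 to 14.5 M in the Treg libraries and 4.5 to 8.0 M in those of HFSC. Within Treg libraries Mt1 rested on 142 to 489 tags in GR KO and 449 to 798 tags in GR WT, and Slc30a1 on 90 to 132 tags in GR KO and 86 to 163 tags in GR WT. Mt1 rested on 1225 to 1957 tags in HFSC GR KO and 1232 to 1399 tags in HFSC GR WT. Among the HFSC libraries, GR WT replicate 1 was the shallowest and had the highest summed level of bulge stem cell markers, 8198 TPM, against 4356 to 5651 TPM in GR KO and 5447 to 6002 TPM in the other GR WT libraries. The Treg markers (Foxp3, Il2ra, Ctla4, Ikzf2, Cd3e and Cd4) summed to 4545 to 7627 TPM in Treg GR KO and 6930 to 7653 TPM in Treg GR WT, and bulge markers were high in HFSC, so both sorts carried their label's markers. Of the 6 Treg markers 1 fell, where 1.31% of all genes tested in Treg cells were called lower. It was the interleukin 2 receptor gene Il2ra (330.1 TPM in GR KO and 485 TPM in GR WT, limma adjusted p = 0.00575). The targeted gene itself, Nr3c1, averaged 129.5 ± 27.3 TPM in GR KO and 211 ± 35.3 TPM in GR WT of the Treg table (n = 5 and 3, SD, log2 fold change -0.71, limma adjusted p = 0.0722). Deleted exons need not lower a value summed over the whole transcript by much.

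In Treg cells the metallothionein transcripts stood lower in GR KO, while Mtf1 and Slc30a1 showed no difference beyond the spread between libraries. Mt1 fell to 46.0% of its GR WT mean and its groups did not overlap. Mt2 stood at 38.0% of its GR WT mean, the larger change of the pair, but with 1 library out of order it did not pass the threshold.

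**Figure D1:**
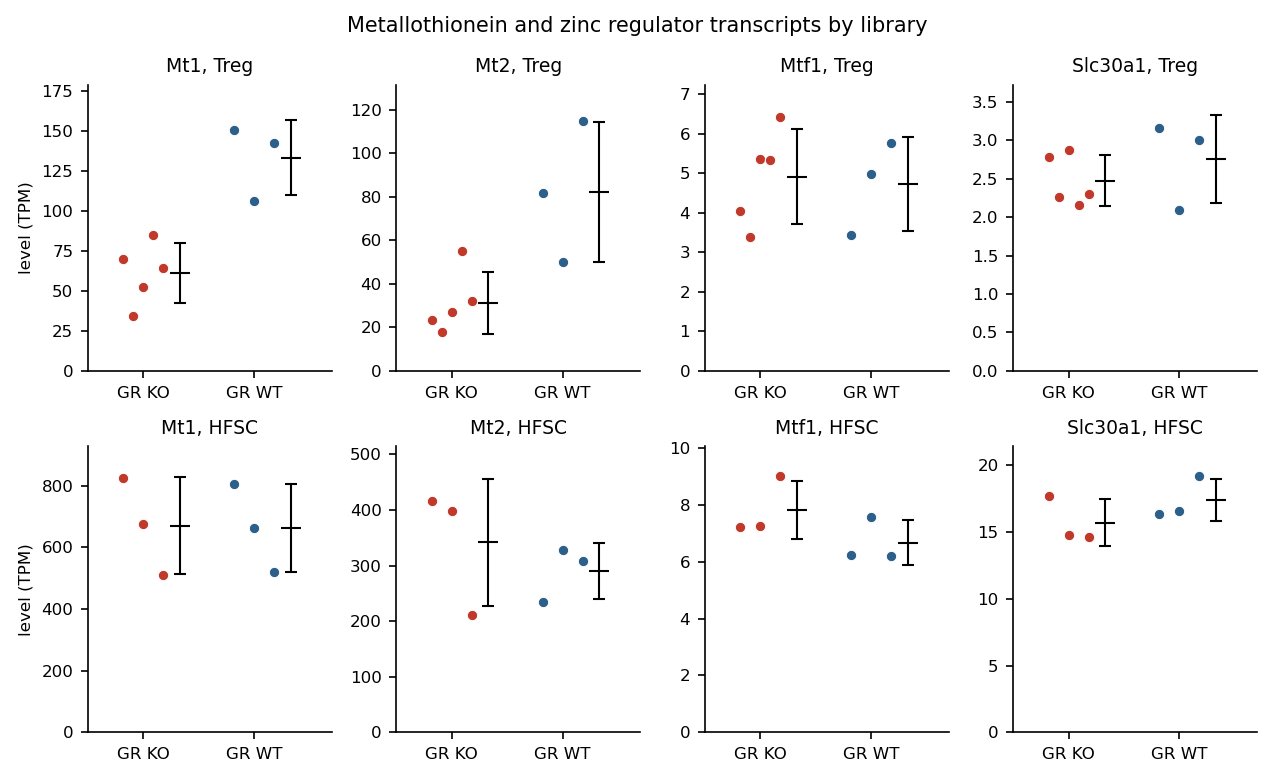
TPM of Mt1, Mt2, Mtf1 and Slc30a1 in each library (points), with GR KO left of GR WT and the mean ± SD beside each group, for Treg cells in the upper row (n = 5 and 3) and HFSC in the lower row (n = 3 each); each panel has its own axis from 0. In Treg cells the 5 GR KO libraries lie at 34.7 to 84.8 TPM for Mt1, below all 3 GR WT libraries at 107 to 151 TPM, and in HFSC the Mt1 groups span nearly the same range.

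Mt1 was at 69.9, 34.7, 52.4, 84.8 and 64.6 TPM in Treg GR KO replicates 1 to 5, against 151, 107 and 143 TPM in Treg GR WT replicates 1 to 3. The highest GR KO library, replicate 4, stayed below the lowest GR WT library, replicate 2. The means were 61.3 ± 18.9 TPM in GR KO and 133 ± 23.5 TPM in GR WT (SD, n = 5 and 3). On the log2(TPM + 1) scale the difference was -1.15 (SE 0.24, 95% interval -1.68 to -0.62), with limma's adjusted p = 0.042 over 11579 genes. An exact two-sided permutation test of this gene alone gave p = 0.0179, the smallest that 56 assignments allow. Of the 4 genes Mt1 was the 1 called lower, where 1.51% of all genes tested were called in either direction, 1.31% were called lower and 5.1% had GR KO wholly below GR WT. The call is close to the threshold. Its adjusted p was 0.0588 without GR KO replicate 1, 0.094 without replicate 3 and 0.0725 without replicate 5, and 0.13 without GR WT replicate 1 and 0.183 without GR WT replicate 3. It also missed with 7 of 11 other settings, median ratio scaling (0.0614) and quantile scaling (0.0514) among them, and in every one of the 19 alternatives the estimate lay between -1.37 and -0.97.

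Mt2 was at 23.2, 18.1, 27.3, 55.3 and 32.1 TPM in Treg GR KO replicates 1 to 5, against 81.5, 50.2 and 115 TPM in Treg GR WT replicates 1 to 3. GR KO replicate 4 lay above GR WT replicate 2, and the other 4 GR KO libraries lay below all GR WT libraries. The means were 31.2 ± 14.4 TPM in GR KO and 82.1 ± 32.2 TPM in GR WT (SD, n = 5 and 3). The log2 difference was -1.39 (SE 0.33, 95% interval -2.12 to -0.67, limma adjusted p = 0.0722), and the exact permutation p was 0.0536. Its residual spread on the log2 scale was larger than that of 90.8% of genes tested, against 82.1% for Mt1. Without GR KO replicate 4 the adjusted p was 0.0213, and without GR WT replicate 2 it was 0.0365. Without any other library it lay between 0.116 and 0.297, the highest without GR WT replicate 3, and with the robust prior it was 0.189. The voom fit on recovered tags called both metallothioneins, with adjusted p = 0.0172 for Mt1 and 0.0361 for Mt2.

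**Figure D2:**
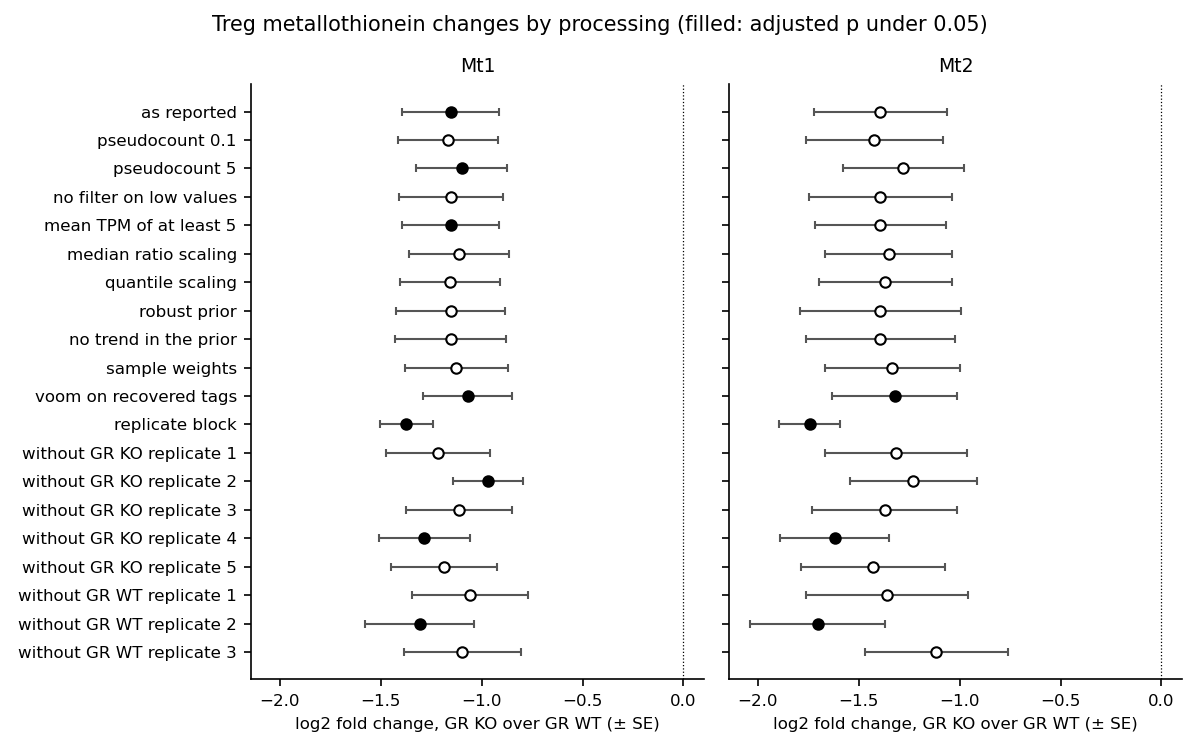
Log2 fold change of Mt1 (left) and Mt2 (right) in Treg GR KO over GR WT under each processing setting, with bars of 1 SE; filled points have a limma adjusted p under 0.05. All estimates lie below 0, between -1.37 and -0.97 for Mt1 and between -1.74 and -1.12 for Mt2, while the side of the threshold changes with the setting.

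Mt1 and Mt2 varied largely together in the Treg libraries. GR KO replicate 4 was the highest and replicate 2 the lowest GR KO library for both genes, and GR WT replicate 2 was the lowest GR WT library for both. The order was not the same throughout. The highest GR WT library was replicate 1 for Mt1 and replicate 3 for Mt2, and GR KO replicate 1 ranked higher for Mt1 than for Mt2. The ratio of Mt1 to Mt2 was 3.02, 1.92, 1.92, 1.53 and 2.01 in GR KO replicates 1 to 5, against 1.85, 2.12 and 1.25 in GR WT replicates 1 to 3. These ratios overlapped between the groups and averaged 2.08 in GR KO and 1.74 in GR WT (exact two-sided permutation test of the log2 ratio, p = 0.411).

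Mtf1, the zinc sensor, was at 4.04, 3.37, 5.36, 5.34 and 6.43 TPM in Treg GR KO, against 3.44, 4.97 and 5.77 TPM in Treg GR WT. These groups overlapped, and the log2 difference of 0.04 had a 95% interval of -0.48 to 0.56 (limma adjusted p = 0.96, exact permutation p = 0.857). Slc30a1, the exporter, was at 2.79, 2.26, 2.88, 2.16 and 2.31 TPM in Treg GR KO, against 3.16, 2.1 and 3 TPM in Treg GR WT. Its groups overlapped as well, with a log2 difference of -0.10 and a 95% interval of -0.60 to 0.39 (limma adjusted p = 0.883, exact permutation p = 0.393). Changes of up to about the ends of these intervals could not be told from 0 with these libraries. The direction of Mtf1 turned without GR KO replicate 5, without GR WT replicate 1 or with a replicate block, and that of Slc30a1 turned with quantile scaling.

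In HFSC, where the metallothioneins are abundant, none of the 4 genes differed between the genotypes beyond the spread between libraries. Called genes in either direction were 0.176% of the 12493 tested, and groups without overlap made up 23.5%, but all 4 genes overlapped. At an unadjusted p of 0.05, 0 of the 4 passed with limma, against 16.6% of all genes. Mt1 was at 824, 677 and 509 TPM in HFSC GR KO, against 804, 662 and 519.7 TPM in HFSC GR WT. The 2 groups covered almost the same range, and the log2 difference was 0.01 with a 95% interval of -0.46 to 0.49 (limma adjusted p = 0.984). Mt2 was at 416, 399 and 210.5 TPM in HFSC GR KO, against 234, 327 and 309 TPM in HFSC GR WT. Here GR KO held both the highest levels and the lowest one, and the log2 difference was 0.19 with a 95% interval of -0.40 to 0.78 (limma adjusted p = 0.756).

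Mtf1 was at 7.22, 7.25 and 8.99 TPM in HFSC GR KO, against 6.22, 7.57 and 6.19 TPM in HFSC GR WT, a log2 difference of 0.20 (95% interval -0.24 to 0.64, limma adjusted p = 0.639). Slc30a1 was at 17.7, 14.8 and 14.6 TPM in HFSC GR KO, against 16.4, 16.5 and 19.2 TPM in HFSC GR WT, a log2 difference of -0.14 (95% interval -0.48 to 0.20, limma adjusted p = 0.683). Both genes overlapped between the genotypes. With 3 libraries a group the exact permutation test cannot go below 0.1, and its p was 0.8 for Mt1, 0.6 for Mt2 and 0.3 for both Mtf1 and Slc30a1. Leaving out GR WT replicate 1, the library that stood apart, gave log2 differences of 0.16 for Mt1, 0.04 for Mt2, 0.16 for Mtf1 and -0.18 for Slc30a1, none of them called. The ratio of Mt1 to Mt2 was 1.98, 1.7 and 2.42 in HFSC GR KO, against 3.44, 2.02 and 1.68 in HFSC GR WT (exact permutation p = 0.7), with the highest value in that same library. The sign for Mt1 in HFSC turned with quantile scaling, with voom and without GR KO replicate 1, GR KO replicate 2 or GR WT replicate 3.

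For each of the 4 genes the ratio of means was larger between cell types than between genotypes. These are values from tables that were made separately, so they carry no test, and cell type cannot be told apart from the day after depilation. Mt1 averaged 670.0 TPM in HFSC GR KO and 662 TPM in HFSC GR WT, against 61.3 TPM in Treg GR KO and 133 TPM in Treg GR WT. That placed HFSC over Treg by a ratio of 10.9 in GR KO and 4.97 in GR WT. In HFSC it ranked between 74 and 137 of 12493 genes by TPM in a library, and in Treg cells between 1290 and 3038 of 11579 in GR KO and between 685 and 1000 in GR WT. Mt2 kept the same order, with both HFSC genotypes above Treg GR WT and Treg GR KO the lowest, at 342 TPM in HFSC GR KO and 290.1 TPM in HFSC GR WT, against 31.2 TPM in Treg GR KO and 82.1 TPM in Treg GR WT. Its ratio of HFSC over Treg was 11.0 in GR KO and 3.53 in GR WT. In this order the genotypes of HFSC did not differ beyond their spread for either gene, HFSC and Treg libraries did not overlap, and the Treg genotypes overlapped for Mt2 alone.

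Slc30a1 averaged 15.7 TPM in HFSC GR KO and 17.4 TPM in HFSC GR WT, against 2.48 TPM in Treg GR KO and 2.75 TPM in Treg GR WT, a ratio of HFSC over Treg of 6.33 in GR KO and 6.31 in GR WT. Its genotypes did not differ beyond their spread in either cell type, and the cell types did not overlap. Mtf1 was the most even, with 7.82 TPM in HFSC GR KO, 6.66 TPM in HFSC GR WT, 4.91 TPM in Treg GR KO and 4.72 TPM in Treg GR WT. The lowest HFSC GR WT library, at 6.19 TPM, lay under the highest Treg GR KO library, at 6.43 TPM, although within a genotype the cell types did not overlap. Whether the genotype difference in Mt1 or Mt2 is itself unlike between the cell types was not tested.

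Markers of other skin cells moved with genotype in the Treg libraries, in the same direction as the metallothioneins. Beside the 1.31% of all genes tested that were called lower there, 7 of 9 tested basal keratinocyte markers fell (Krt5, Krt14, Krt15, Krt17, Col17a1, Trp63 and Perp), and the 10 on the list summed to 64.0 to 166 TPM in GR KO and 445 to 730 TPM in GR WT, with none at 0 in every library. A large part of the GR KO sums came from Sfn and Itga6, which were not called. Sfn averaged 45.3 TPM in GR KO and 49.6 TPM in GR WT, and Itga6 14.6 TPM and 16.0 TPM. Of 10 tested macrophage and monocyte markers, 5 fell (Lyz2, Cd14, Mrc1, Fcgr1 and Ms4a7), and the 11 on the list summed to 57.6 to 170 TPM in GR KO and 202 to 356 TPM in GR WT. Neutrophil markers, of which 2 of 3 tested fell (S100a8 and S100a9), summed to 0 to 20.8 TPM in GR KO and 75.7 to 326 TPM in GR WT, with Cxcr2 at 0 in all GR KO libraries. Fibroblast markers summed to 21.9 to 106 TPM in GR KO and 112 to 190 TPM in GR WT, with 0 of 6 tested called by limma and 5 of 6 at an unadjusted p under 0.05, where 14.1% of all genes passed that mark. Of 4 tested suprabasal keratinocyte markers 2 fell, Krtdap and Sbsn (sums of 4.77 to 22.7 TPM in GR KO, with Lor at 0 in all, and 37.6 to 89.6 TPM in GR WT), and of 7 tested sebocyte markers 3 fell, Elovl3, Plin2 and Mgst1 (48.0 to 87.6 TPM in GR KO and 120 to 141 TPM in GR WT). Bulge stem cell markers, of which 2 of 4 tested fell (Krt15 and Cd34), summed to 38.2 to 65.2 TPM in GR KO and 175 to 318 TPM in GR WT. These sums also hold Itga6 and Nfatc1, which were not called. Nfatc1 averaged 24.7 TPM in GR KO and 31.1 TPM in GR WT. In bulk libraries, fewer cells of a type and less RNA per cell cannot be told apart.

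**Figure D3:**
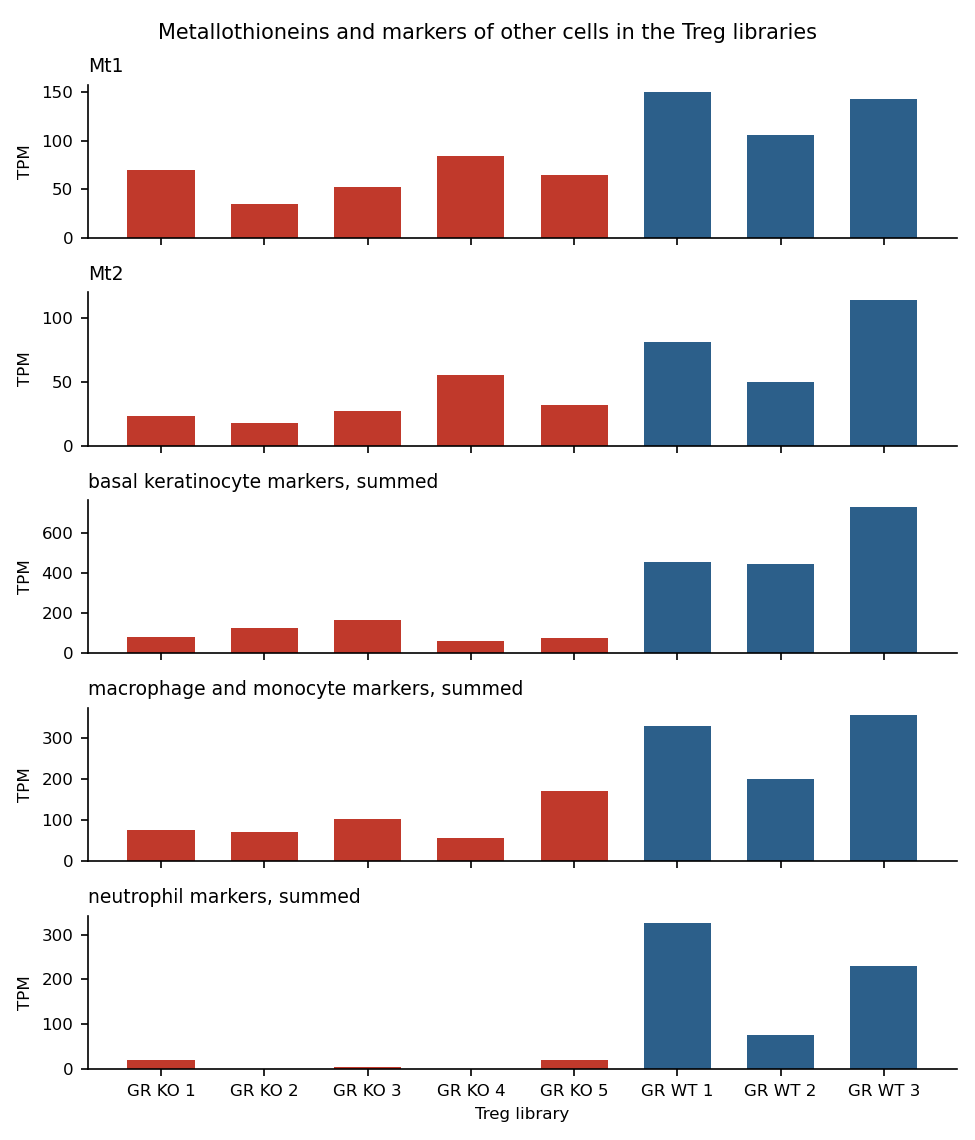
TPM of Mt1 and Mt2 and the summed TPM of basal keratinocyte, macrophage and monocyte, and neutrophil markers in each Treg library, with the 5 GR KO libraries left of the 3 GR WT libraries and each axis from 0. The GR WT libraries are above all GR KO libraries in Mt1 and in all 3 marker sums, and GR KO replicate 4 lies above GR WT replicate 2 in Mt2.

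For keratinocytes, the deposited HFSC levels give a scale for these markers. By the median over the basal markers, a Treg library carried 0.0663% to 0.377% of the HFSC level in GR KO and 1.60% to 2.64% in GR WT. Markers differed widely in this share, which for the highest marker of a library was 11.9% to 15.4% in GR KO and 12.7% to 17.2% in GR WT. By group means that marker was Itga6, at 14.6 TPM in Treg GR KO and 16.0 TPM in Treg GR WT. Its HFSC means were 109.5 TPM in GR KO and 105.2 TPM in GR WT. Neither Itga6 (limma adjusted p = 0.777) nor Sfn (0.732) was called in Treg cells, whereas the other tested basal markers fell. The median share of the HFSC level of Mt1 is 0.441 to 2.51 TPM in GR KO and 10.6 to 17.6 TPM in GR WT. For Mt2 it is 0.209 to 1.19 TPM in GR KO and 5.04 to 8.35 TPM in GR WT. HFSC stand in here for whichever keratinocytes a Treg sort lets in, whose own level is not known. No sorted macrophages, neutrophils or fibroblasts are at hand to scale the other lists. The part of any of these cell types in the Mt1 and Mt2 difference was not tested.

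The remaining metallothionein genes rested on few tags. Mt3, known mainly from brain, was at 3.19, 0, 0, 4.54 and 0.691 TPM in Treg GR KO, against 0, 0.956 and 0.361 TPM in Treg GR WT, from at most 26 tags in a library (limma adjusted p = 0.712). It was at 0 in all 6 HFSC libraries, which allows a level of up to 1.16 to 1.93 TPM by library (3 tags). Mt4, known from stratified epithelia, was at 0 in all 8 Treg libraries, which allows up to 0.715 to 1.07 TPM. It was at 0, 0 and 1.16 TPM in HFSC GR KO, against 0, 2.63 and 4.7 TPM in HFSC GR WT, from at most 8 tags (limma adjusted p = 0.464). Limits and tag numbers cover counting error only and take tags as independent, which they are not, so the limits may be too low. Around the cluster, the tested neighbours Ogfod1, Bbs2, Nup93 and Herpud1 were not called in either table. Herpud1, a gene of the endoplasmic reticulum stress response, was at 123 TPM in Treg GR KO and 119 TPM in Treg GR WT, and Nup93, a nuclear pore gene, at 11.3 TPM in GR KO and 11.2 TPM in GR WT. Their log2 differences in Treg cells were 0.05 for Herpud1 and -0.01 for Nup93.

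Zinc transporters move the metal that MTF-1 senses: SLC30 proteins carry zinc out of the cytoplasm, and SLC39 proteins carry it in. Of 24 such genes, 17 passed the level filter in Treg cells and 16 in HFSC, and limma called 0 in either table. At an unadjusted p under 0.05, limma had 1 in each, where 14.1% of all genes passed that mark in Treg cells and 16.6% in HFSC, and voom on recovered tags and limma with sample weights each called 1 in HFSC and 0 in Treg cells. The median log2 difference of the tested transporters was 0.01 in Treg cells and 0.01 in HFSC, against -0.04 and -0.02 for all genes tested in those tables. In Treg cells the smallest p belonged to Slc39a10, an importer, which spanned 8.21 to 10.5 TPM in GR KO and 11.6 to 12.0 TPM in GR WT without overlap (log2 difference -0.34, limma adjusted p = 0.333). Slc30a4, an exporter into vesicles, spanned 0.527 to 1.16 TPM in GR KO and 0.978 to 3.02 TPM in GR WT (log2 difference -0.56, limma adjusted p = 0.449).

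In HFSC the smallest p among transporters was that of Slc39a11, at 95.1 to 124 TPM in GR KO and 56.5 to 82.0 TPM in GR WT without overlap (log2 difference 0.69, limma adjusted p = 0.114). Slc39a6, an importer, was at 16.6 to 18.9 TPM in GR KO and 19.3 to 28.7 TPM in GR WT (log2 difference -0.38, limma adjusted p = 0.306). Slc39a1, an importer of the plasma membrane, was at 69.8 to 71.6 TPM in GR KO and 73.2 to 83.6 TPM in GR WT (log2 difference -0.18, limma adjusted p = 0.428). These groups did not overlap either, as in 23.5% of all genes tested in HFSC.

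**Figure D4:**
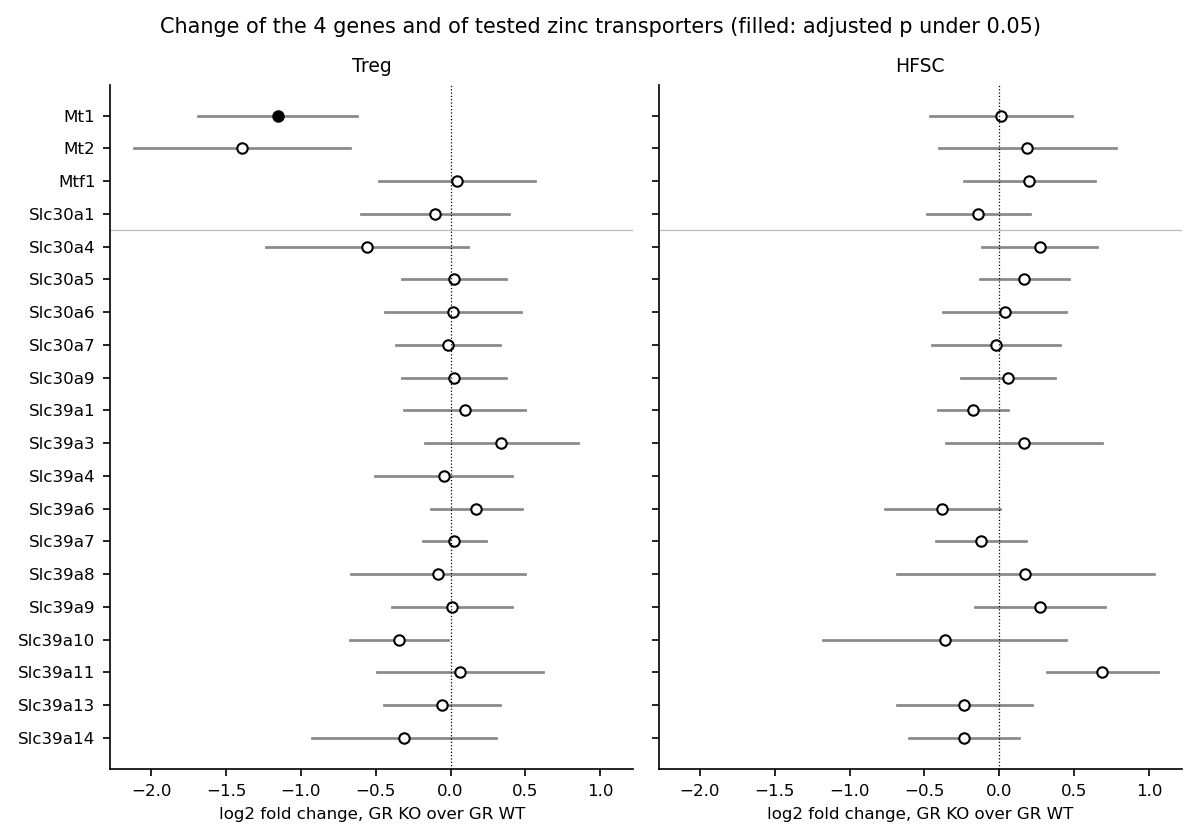
Log2 fold change of the 4 genes (above the grey line) and of the tested zinc transporters, GR KO over GR WT, with 95% intervals, in Treg cells (left) and HFSC (right); filled points have a limma adjusted p under 0.05, and a gap means that the gene did not pass the level filter. Mt1 in Treg cells, at -1.15, is the filled point, and most transporter intervals include 0.

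By level, Slc30a1 stood 11th of the 24 transporters in HFSC, at 16.5 TPM over all libraries, and 15th in Treg cells, at 2.58 TPM. Slc39a7, which releases zinc from the secretory pathway, was the highest in both, at 103 TPM in HFSC and 48.0 TPM in Treg cells. Slc39a11 was at 91.6 TPM in HFSC and 6.61 TPM in Treg cells. The reverse held for Slc39a4, the importer known from intestinal zinc uptake, with 0.925 TPM in HFSC and 17.0 TPM in Treg cells. Slc30a8, Slc30a10, Slc39a5 and Slc39a12 were at 0 in every library of both tables, and Slc30a3 was at 0 in all 8 Treg libraries.

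**Figure D5:**
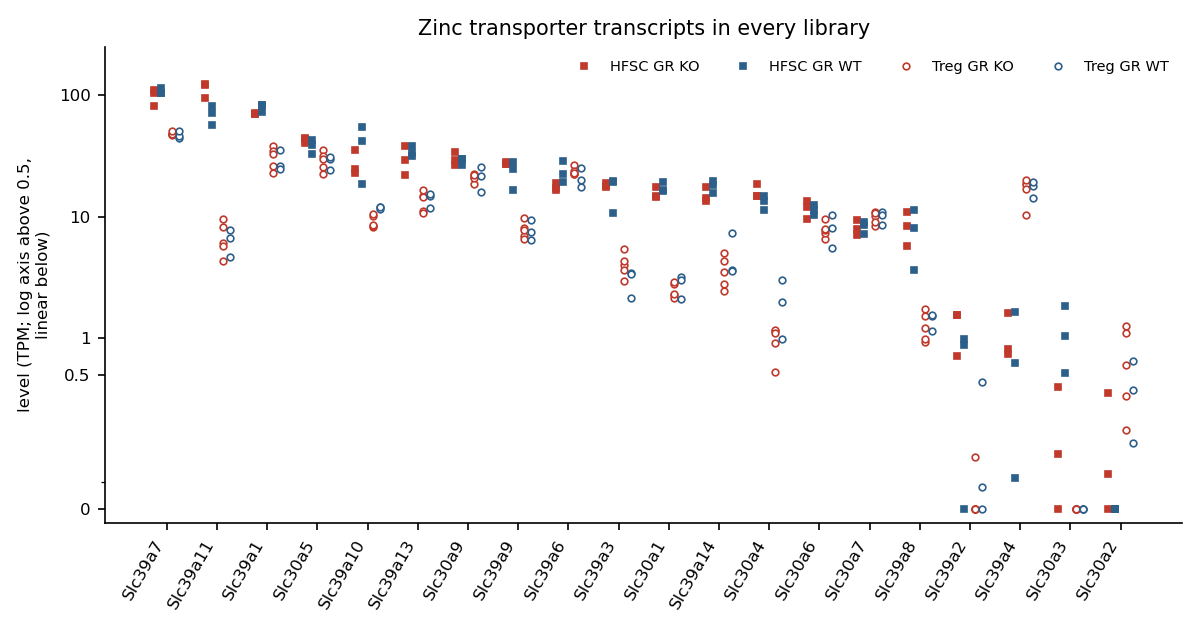
TPM of each zinc transporter with a value above 0 in any library, ordered by mean level in HFSC, with 1 point a library: filled squares for HFSC, open circles for Treg cells, GR KO in red left of GR WT in blue. Slc30a1 lies at 14.6 to 19.2 TPM in HFSC and 2.1 to 3.16 TPM in Treg cells, and Slc39a4 is among the few genes that stand higher in Treg cells.

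Glucocorticoid-induced genes give a setting for the metallothionein values in both tables. Of 9 tested in Treg cells, where 1.31% of all genes were called lower, 1 fell, the leucine zipper gene Tsc22d3, and 8 of 9 differences were below 0. Of these 9, 4 had GR KO wholly below GR WT, where 5.1% of all genes did. Tsc22d3 was at 193 to 243 TPM in GR KO and 400 to 478 TPM in GR WT (log2 fold change -0.93, limma adjusted p = 0.00214). Of 10 tested in HFSC, where 0.144% of all genes were called higher, 1 rose, the transcription factor gene Klf9 (83.1 ± 5.16 TPM in GR KO and 45.1 ± 3.46 TPM in GR WT, SD, n = 3 each, log2 fold change 0.87, limma adjusted p = 0.0413), and all 10 differences were above 0. On this list 7 of 10 had GR KO wholly above GR WT in HFSC, where 10.7% of all genes did, while Mt1 and Mt2 overlapped there. Sebocyte markers, which a follicle sort can hold, summed to 6952 to 8681 TPM in HFSC GR KO and 3188 to 4901 TPM in HFSC GR WT. Of 9 tested, 1 rose (Plin2), and 8 had GR KO wholly above GR WT, beside the same 10.7% of all genes. Basal keratinocyte markers went the other way in HFSC, with sums of 18449 to 21801 TPM in GR KO and 24139 to 29088 TPM in GR WT. Limma called 0 of 10 tested, where 0.176% of all genes were called in either direction. The part of sebocytes or of other follicle cells in the HFSC values was not tested.

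Likeness over the libraries of a table was measured as Pearson's r of log2(TPM + 1) among genes averaging at least 5 TPM, as a description of libraries that share genotype and depth. In the 8 Treg libraries Mt1 and Mt2 had r = 0.929. Among 8600 genes, 15 were more like Mt1 than Mt2 was, with unnamed loci and small RNA genes left out of that count. Around the genotype means r was 0.791, and 116 genes were more like Mt1 than Mt2 was, with no loci left out. The 5 most like Mt1 were Ppfibp1 (0.959), the mitotic spindle gene Prc1 (0.959), Nfe2l2, which encodes the oxidant-responsive factor NRF2 (0.951), Esf1 (0.949) and the caveolin gene Cav2 (0.946). The 5 most like Mt2 were the cohesin gene Smc1a (0.963), the nuclear pore gene Nupl1 (0.960), the ligand gene Tnfsf9 (0.960), Prc1 (0.960) and Fam220a (0.959). Mtf1 had r = 0.136 with Mt1, and Slc30a1 had r = 0.401. In the 6 HFSC libraries Mt1 and Mt2 had r = 0.409. Among 10316 genes, 1030 were more like Mt1 than Mt2 was, with unnamed loci and small RNA genes left out of that count. There St7l led for Mt1 (0.987), followed by Med1, Trdmt1, Slc25a28 and Ofd1, and Ephx1 led for Mt2 (0.994), followed by Tnfsf9, Lmo7, Iqcb1 and Sgms2.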

How the data were processed

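Per the labels' protocols, RNA of sorted mouse skin cells went into stranded mRNA libraries. FastQC, STAR, HOMER, Trim Galore and mm10 are named in the submitters' processing notes; versions, settings and use of strand are not stated. The authors deposited TPM (abundance per transcript length, scaled within a library) in 1 table per cell type with 24537 symbols, each with 1 RefSeq transcript and its length, per the file headers. Deposited rows summed to 649917 to 668742 TPM in Treg and 639752 to 645251 TPM in HFSC libraries. The tables were made separately, so tests stay within a table.

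Groups came from sample titles. HFSC columns, whose prefix has no explanation in the labels, were matched on table, genotype and replicate number. Log2(TPM + 1) of genes averaging at least 1 TPM was fitted in limma 3.58.1 (R 4.3.3) under a trended prior, two-sided, with Benjamini-Hochberg adjustment over all genes of the table and a threshold of 0.05. Fold changes are on this scale and understate changes of low genes. Each of the 4 genes was also tested by exact permutation (Python 3.11.15, numpy 2.4.6). TPM times length gave whole tags within 0.1 for 100% of low values tested; voom on these tags is an alternative. Between 59.9% and 65.6% of nonzero tag numbers per gene were even, so tags are not independent molecules. The labels do not say that replicates are separate animals, so the p-values measure spread between samples that may in part be technical. The fit was tested on simulated data. Same-numbered GR KO and GR WT samples did not deviate together (correlations of -0.117 to 0.17), so no block was used.

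The genes, lists and tests were chosen with earlier results of these data known. Named are the 4 genes, Mt3, Mt4, Nr3c1, Tsc22d3, list members past the threshold or up to 4 with the smallest p (marker lists: those past the threshold, and sums), and the 5 genes most like Mt1 and Mt2, unnamed loci left out. Promoter windows are from RefSeq (GRCm38.p6). Flg on the suprabasal keratinocyte list had no row. Alternatives covered pseudocount, filter, scaling, prior, weights, voom, block and each library left out.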

Additional observations from a re-analysis of the deposited data

Results flagged for a closer look

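Among 35 quantities checked in the 5 Treg GR KO libraries, 2 had a library far from the other 4, where chance gives about 1 in 20. The gap to the nearest library made up 0.803 of the range for Ccs, the copper chaperone of superoxide dismutase, at 47.3 TPM in replicate 4, and 0.824 for Sco2, a mitochondrial copper chaperone, at 9.78 TPM in replicate 3. Neither Mt1 nor Mt2 was marked in this way.

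For 4 of 32 named genes tested in both tables, every GR KO library lay below every GR WT library in Treg cells and above in HFSC, a difference between the cell types that was not tested. The same held for 79 of all 10362 genes tested in both tables, or 0.762%. The named genes include list members picked for a small p in these same tables, which by itself raises their share. The log2 differences of GR KO minus GR WT in Treg cells and in HFSC were -0.93 and 0.79 for Tsc22d3, -0.67 and 0.87 for Fkbp5, which encodes an immunophilin of the receptor complex, -0.91 and 0.87 for Klf9, and -0.51 and 0.70 for the copper exporter gene Atp7a. Of these 8 values, limma called Tsc22d3 in Treg cells (adjusted p = 0.00214) and Klf9 in HFSC (adjusted p = 0.0413).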

How the results depend on the processing

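Of 142 values of the 4 genes under alternatives, 117 kept direction and side of the threshold, 12 lost a call, 4 gained one and 9 changed sign; the causes were not tested. Mt1 in Treg cells lost its call with pseudocount 0.1 (-1.17), no filter (-1.15), median ratio scaling (-1.11), quantile scaling (-1.16), a robust prior (-1.15), no trend (-1.15) and sample weights (-1.13), with adjusted p of 0.0172 to 0.115 over settings, and ranged from -1.31 to -0.97 with a library left out (adjusted p 0.0272 to 0.183). Mt2 in Treg cells passed with voom (-1.32) and ranged from -1.70 to -1.12 with a library left out. Signs changed for Slc30a1 in Treg cells with quantile scaling (0.091), and for Mt1 in HFSC with quantile scaling (-0.00097) and voom (-0.032); with a library left out, Mt1 in HFSC spanned -0.15 to 0.20 and Mtf1 in Treg cells -0.13 to 0.17. Mtf1 and Slc30a1 did not pass the filter at 5 TPM in Treg cells.

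The replicate block, on numbers that do not pair the samples, gave -1.37 for Mt1 (adjusted p = 0.0228), -1.74 for Mt2 (0.0196) and -0.12 for Mtf1 in Treg cells, with 78 genes called in Treg cells against 175 and 66 in HFSC against 22.

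Calls in HFSC numbered 2 with no filter or no trend, 48 at 5 TPM, 69 and 58 with median ratio and quantile scaling, 51 with a robust prior, 584 with sample weights and 483 with voom (50.3% lower, against 18.2%), with 1 zinc transporter called under each of the last 2. Leaving out a library gave 84 to 186 calls in Treg cells (107 without GR WT replicate 1, 84 without GR WT replicate 3) and 0 to 5 in HFSC.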

Other observations

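Copper is the other metal that metallothioneins bind. Of 9 tested copper handling genes, limma called 0 in Treg cells and 0 in HFSC, with 2 in each table at an unadjusted p under 0.05, a mark that 14.1% of all genes passed in Treg cells and 16.6% in HFSC. In Treg cells the copper chaperone gene Ccs averaged 57.2 ± 5.66 TPM in GR KO and 44.3 ± 4.69 TPM in GR WT (SD, n = 5 and 3, limma adjusted p = 0.204). Atp7a averaged 5.16 ± 1.11 TPM in GR KO and 7.69 ± 0.161 TPM in GR WT of the same table (limma adjusted p = 0.267). In HFSC it averaged 9.89 ± 0.925 TPM in GR KO and 5.86 ± 1.88 TPM in GR WT (SD, n = 3 each, limma adjusted p = 0.194). Atox1, another copper chaperone gene, averaged 293 ± 11.0 TPM in HFSC GR KO and 363 ± 36.0 TPM in HFSC GR WT (limma adjusted p = 0.201).

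Targets of NRF2, the oxidant-responsive factor, lay on both sides of 0 in Treg cells, with 3 differences above and 5 below. In HFSC 8 differences lay above 0 and 1 below. Limma called 0 of 8 in Treg cells and 0 of 9 in HFSC, with 4 of 8 and 1 of 9 at an unadjusted p under 0.05, beside the same shares of all genes (14.1% and 16.6%). The glutathione reductase gene Gsr averaged 21.9 ± 2.13 TPM in GR KO and 14.9 ± 3.34 TPM in GR WT Treg cells (n = 5 and 3, SD, limma adjusted p = 0.162), and the peroxiredoxin gene Prdx1 439 ± 25.1 TPM in GR KO and 355 ± 55.8 TPM in GR WT (0.225). Both genes had GR KO wholly above GR WT, but the share of all genes that do so in Treg cells is not given here, so this is not read as a result. The heme oxygenase gene Hmox1 averaged 9.51 ± 1.68 TPM in Treg GR KO and 14.5 ± 1.96 TPM in Treg GR WT (0.178). Its GR KO libraries lay wholly below GR WT, as in 5.1% of all genes tested there. Nqo1 averaged 1.92 ± 0.701 TPM in Treg GR KO and 4.01 ± 1.60 TPM in Treg GR WT (limma adjusted p = 0.274), with overlap. In HFSC the oxidative stress-induced growth inhibitor gene Osgin1 averaged 70.3 ± 4.89 TPM in GR KO and 45.1 ± 6.76 TPM in GR WT (SD, n = 3 each, limma adjusted p = 0.0857). There GR KO lay wholly above GR WT, as in 10.7% of all genes tested in HFSC.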
